A study of Saccharomyces cerevisiae with 3 samples.

Results

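The 7 genes described here encode heat shock proteins of budding yeast, the chaperones *SSA1*, *SSA2*, *SSA3*, *HSP82* and *HSP104* and the stress proteins *HSP12* and *HSP30*. They were chosen by name, as the members of a list of 7 heat shock genes that have a row in the study's table of transcription start sites (TSS) and polyadenylation sites (pAS), a rule that uses no measured value, although earlier results of these data were known when the list was drawn up. The part of that table used here lists 1999 sites, of which 1971 belong to genes with a single row, so the 7 members are 7 of 1971 genes. Each gene was read in 3 windows, the 800 bp upstream of the TSS (promoter), the TSS to the pAS (gene body) and the 300 bp past the pAS.

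Heat shock proteins keep other proteins folded. Hsp70 and Hsp90 chaperones bind unfolded or immature clients, and the disaggregase encoded by *HSP104* pulls proteins out of aggregates. In yeast many of their genes are activated within minutes of heat or other stress by the factors Hsf1, Msn2 and Msn4, some are also transcribed in unstressed cells, and their promoters are known for an open chromatin structure. Micrococcal nuclease (MNase) cuts DNA between nucleosomes, so that protected fragments of about nucleosomal size mark where nucleosomes lie, but the enzyme also has a preference for some DNA sequences, which digestion of protein-free DNA shows.

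The study prepared MNase fragments from cells of BY4741, a laboratory strain of mating type a with the auxotrophic alleles *his3Δ1*, *leu2Δ0*, *met15Δ0* and *ura3Δ0*, and from *dst1∆*, a derivative of BY4741 that lacks the gene of the transcription elongation factor TFIIS. The cultures were growing exponentially in rich medium and no heat treatment is named. The 3 libraries were 1 of naked DNA, made from wild-type BY4741 DNA that was freed of protein before MNase was added, and 2 of *dst1∆* chromatin, cross-linked with formaldehyde and digested only partially. The naked DNA therefore came from the wild type and not from the mutant, and wild-type chromatin was not analysed here. Nothing in the labels says that the replicates of the mutant came from separate cultures, and replicate 2 was read on another instrument and with longer reads than the other libraries, so that replicate and sequencing run cannot be told apart.

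The libraries held 16618987 mapped reads of naked DNA and 10776646 and 9049024 of *dst1∆* chromatin, a coverage of 49.7-fold, 32.2-fold and 34.6-fold. Signal is given as the density of fragment centres with the genome mean of each library set to 100, and a ratio is the log2 of chromatin over naked DNA after adding 10 to both. A gene was called 2-fold lower or higher only if the log2 ratio was at or below −1, or at or above 1, in both replicates. The zero of these ratios depends on the scale. With the genome median of each library set to 100 in place of the mean, the median log2 ratio of all genes fell by 0.82 in the promoter, 0.81 in the gene body and 0.72 past the pAS. The members' ratios fell with it, so that the values above 0 given below for the promoters of *SSA1*, *SSA2* and *HSP82*, for the gene bodies of *SSA1*, *SSA3*, *HSP104* and *HSP30* and past the pAS of *SSA3* and *HSP82* turned below 0, and a ratio is best read against the median of all genes. With 1 naked DNA library and 2 replicates no p-value was computed, and the spread between replicates is given as an SD (n = 2). The mutant label was checked on the reads. The longest stretch that no read of either replicate spanned while the naked DNA did was 531 bp, on chromosome VII from 417880 to 418410 of sacCer2, with 631 naked DNA reads, and the next longest was 205 bp. Chromosome VII is the chromosome of *DST1*, whose own listed sites were not used here.

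All 7 members are on the study's list of TATA genes, those whose core promoter carries a canonical TATA element, and 379 of the 1971 genes are in the part of that list used here. The study's lists also place *SSA1*, *SSA2* and *HSP82* among the promoters with a fragile −1 nucleosome, one that intensive digestion destroys, and *HSP104* among those with a stable one. The plot of the profiles gives the signal of every library along each gene.

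**Figure D1:**
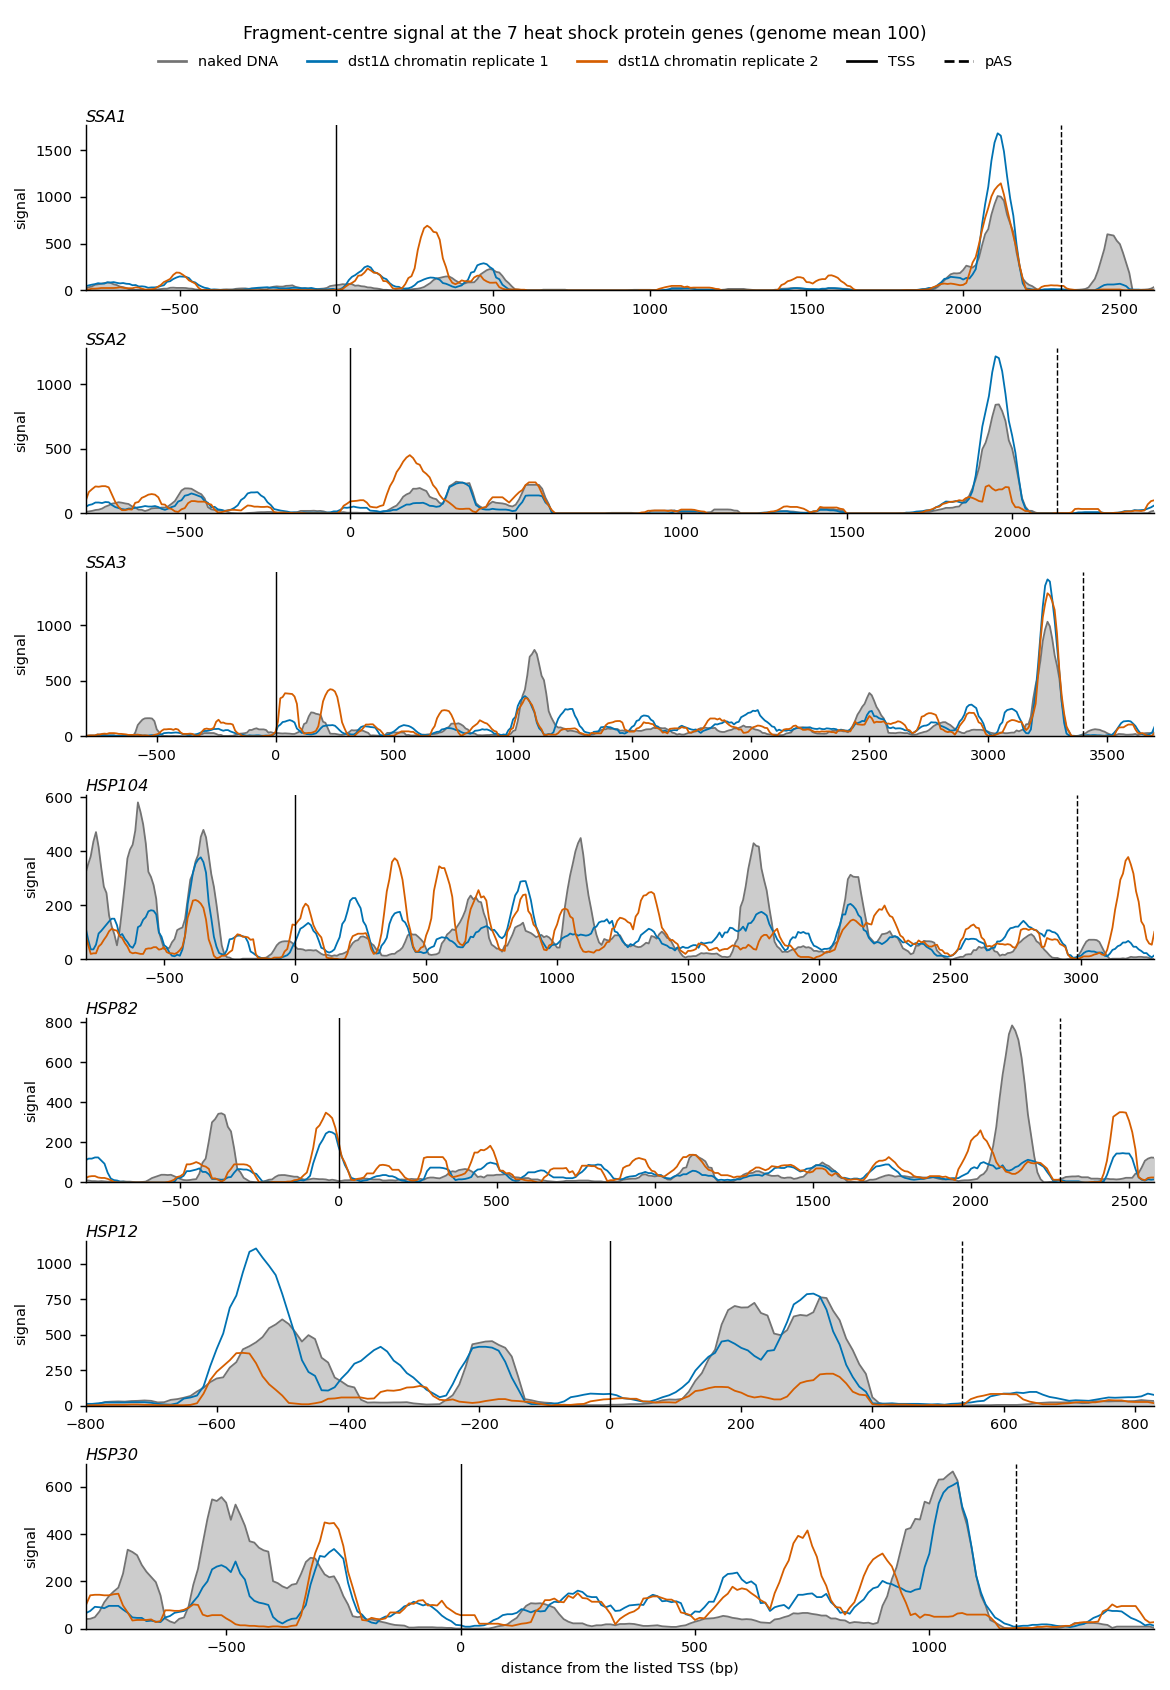
Fragment-centre signal (y axis, genome mean of 100) against distance from the listed TSS in bp (x axis) for the 7 genes, with naked DNA filled in grey and the replicates of *dst1∆* chromatin as lines; the solid vertical line is the TSS and the dashed one the pAS, and the y axes differ. In *SSA1*, *SSA2*, *SSA3*, *HSP82*, *HSP12* and *HSP30* the highest naked DNA point of the gene body lies within 300 bp of the pAS, from 135 bp before it in *HSP30* to 212 bp in *HSP12*.

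The promoters of 4 members, *SSA1*, *SSA2*, *HSP82* and *SSA3* as listed, gave little signal in naked DNA and in chromatin. In both replicates each of them was below the lower quartile of all genes, which was 59.8 in replicate 1 and 65.9 in replicate 2. The promoters of *HSP104*, *HSP12* and *HSP30* were instead richer in naked DNA fragments than 71.1% to 75.5% of the 1971 genes. Medians over all genes were 97.8 in naked DNA, 83.6 in replicate 1 and 91.3 in replicate 2. None of the 7 promoters was called 2-fold lower in chromatin, where 4.11% of all genes were, and none 2-fold higher, against 5.83%. In replicate 2 taken alone, 2 of them, *HSP104* and *HSP12*, were past −1, as were 18.7% of all genes, and in replicate 1 alone none was, against 6.04%. The median log2 ratio of the members was −0.18, and that of all genes was −0.12. The members' median is the value of *SSA3*, whose listed promoter probably lies upstream of another gene, as described below. In single replicates the members' median was −0.03 and 0.04.

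**Figure D2:**
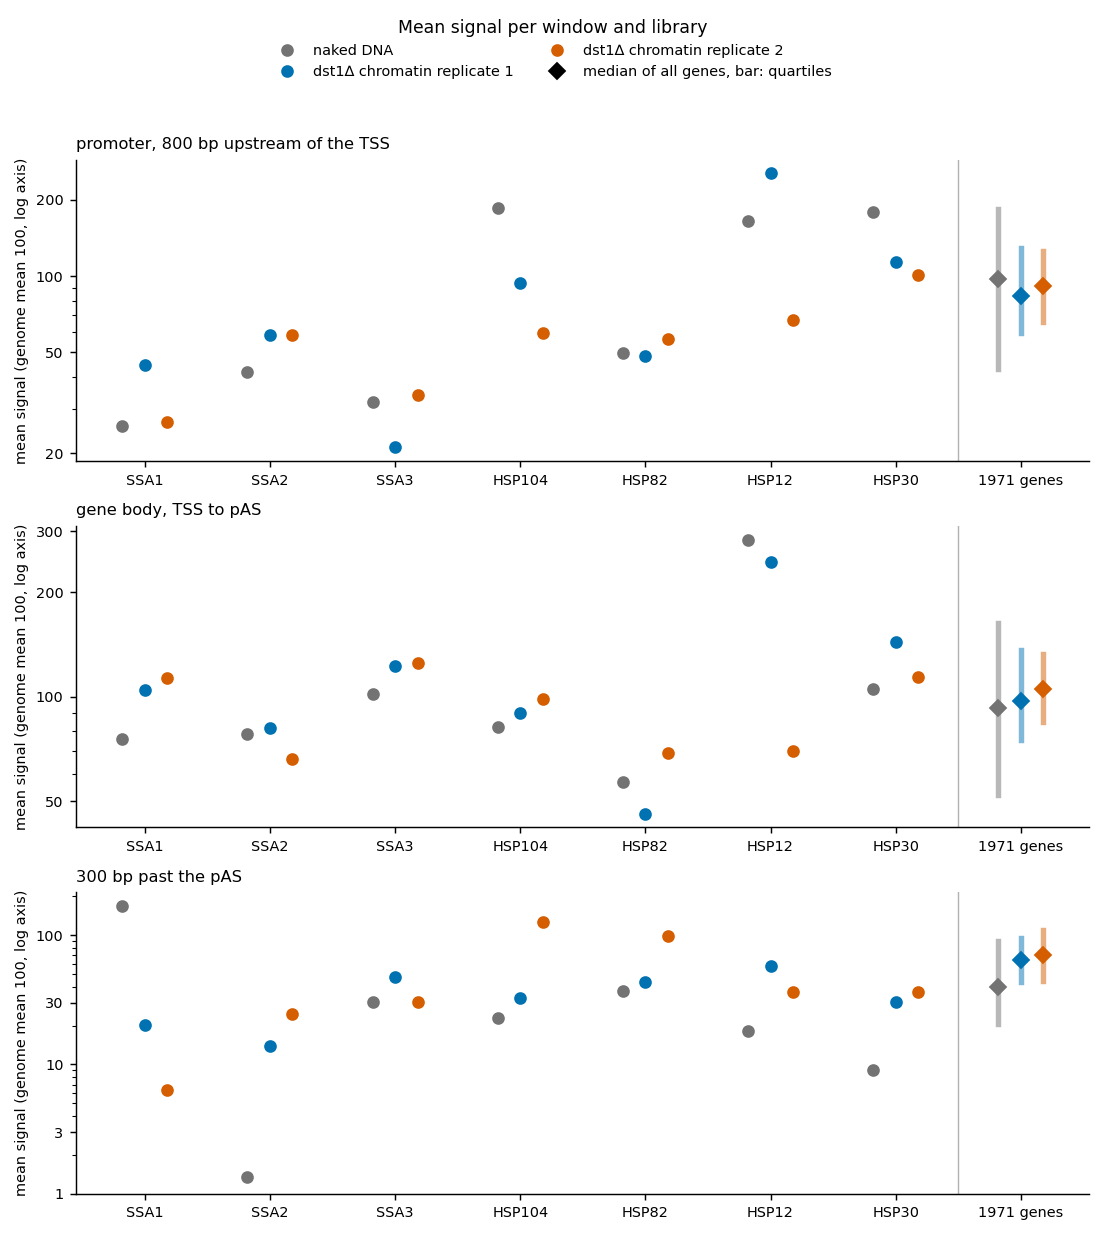
Mean signal (y axis, logarithmic, genome mean of 100) of the 7 genes in the promoter, the gene body and the 300 bp past the pAS, 1 point per library, with the median (diamond) and quartiles (bar) of 1971 genes at the right. Past the pAS, *SSA1* has its highest point in naked DNA (168) and both chromatin points far below (20.3 and 6.34), whereas *SSA2* has the lowest naked DNA point of all members (1.34).

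*SSA1* (YAL005C) encodes a cytosolic Hsp70 chaperone and lies on the Crick strand of chromosome I, with the TSS listed at 141683 and the pAS at 139371. Its promoter signal was 25.6 in naked DNA, 44.5 in replicate 1 and 26.5 in replicate 2. Replicate 2 was thus at the level of naked DNA and replicate 1 above both, and the log2 ratio of 0.32 ± 0.41 (SD, n = 2) was within the spread between replicates and was −0.07 with 1 read per strand position. Only 2.13% of all genes had a lower promoter in replicate 2.

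The low region of the *SSA1* promoter was long. From 433 bp upstream to 28 bp downstream of the TSS, both replicates stayed below 50 over 462 bp without a break, against a median of 165 bp for the longest such stretch among all genes, and 99.4% of the genes had a shorter one. Naked DNA was low there too, below 50 from −696 to −156. Nearest the TSS, from −250 to −50, the signal was 28.9 in naked DNA, 24.4 in replicate 1 and 1.84 in replicate 2. The replicates disagreed in this stretch. Replicate 2 held 2 fragment centres there against 30 in replicate 1 and 50 in naked DNA, and its ratio to naked DNA was 0.066 with a 95% counting interval of 0.0078 to 0.25. Upstream of the gap a nucleosome was called at −488 in replicate 1 and at −508 in replicate 2. *EFB1*, which encodes a translation elongation factor, has its TSS 444 bp upstream, so the gap lies between divergent starts. With the promoter ended at that TSS the log2 ratio of *SSA1* was −0.79.

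Downstream of the TSS, the *SSA1* gene body had 75.8 in naked DNA, 104 in replicate 1 and 113 in replicate 2. Both replicates were above naked DNA, at a log2 ratio of 0.47 ± 0.07 (SD, n = 2). The value depended on repeated reads, at 0.19 with 1 read per strand position and 1.60 with no limit on repeats. The first called nucleosome was centred 102 bp downstream of the TSS in replicate 1 and 112 bp in replicate 2. A second one followed at 272 bp and 292 bp, and its height was 62.3 in replicate 1 but 542 in replicate 2.

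Past the pAS, *SSA1* was the member with the strongest depletion. The signal was 168 in naked DNA, 20.3 in replicate 1 and 6.34 in replicate 2, from 451, 37 and 7 fragment centres. Both replicates were far below naked DNA, with log2 ratios of −2.56 and −3.45 and a mean of −3.00 ± 0.63 (SD, n = 2), and only 0.152% and 0.406% of all genes were lower in the same replicate. The naked DNA fragments formed a single peak of 603 that was centred 149 bp past the pAS. *SSA1* was the 1 member called 2-fold lower in this window, where 5.07% of all genes were called. The ratios of fragment centres, with their 95% counting intervals, were 0.117 (0.0812 to 0.164) in replicate 1 and 0.0256 (0.0102 to 0.0532) in replicate 2. Without molecular identifiers these intervals cover counting error only.

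*SSA2* (YLL024C) encodes the Hsp70 chaperone closest in sequence to the product of *SSA1* and is expressed in unstressed cells. It lies on the Crick strand of chromosome XII, with the TSS at 97581 and the pAS at 95445. Its promoter had 41.8 in naked DNA, 58.8 in replicate 1 and 58.3 in replicate 2. Both replicates were above naked DNA, at a log2 ratio of 0.40 ± 0.01 (SD, n = 2), which was −0.02 with 1 read counted per strand position. The longest stretch with both replicates below 50 ran from −234 to −22, shorter ones lay further upstream, and naked DNA was below 50 over a longer run from −431 to 130. A nucleosome was called on the upstream side of the gap at −290 in replicate 1 and −300 in replicate 2. *POM33*, a nuclear envelope protein gene, ends 360 bp upstream, and with the promoter ended there the log2 ratio of *SSA2* was 1.21, from 0.76 and 1.66 in the replicates, and was not called.

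The gene body of *SSA2* had 78.0 in naked DNA, 81.4 in replicate 1 and 66.1 in replicate 2. Naked DNA lay between the replicates. Along the locus, replicate 1 followed naked DNA (Pearson's r = 0.95 over 324 points spaced 10 bp, which overlap in their fragments) more closely than it followed replicate 2 (r = 0.35). The medians of these correlations over all genes were 0.64 and 0.65. Replicate 1 had its highest point of the gene body 183 bp before the pAS, at 1219, where naked DNA reached 844, and replicate 2 had its own at 181 bp downstream of the TSS, at 456. In the last 300 bp of the gene body the signal was 288 in naked DNA, 379 in replicate 1 and 89.4 in replicate 2.

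Past the pAS of *SSA2* naked DNA was nearly without fragments. The signal was 1.34 in naked DNA, 14.0 in replicate 1 and 24.6 in replicate 2, from 1, 21 and 27 centres. Both replicates were higher, by 29.9 times in replicate 1 with a 95% counting interval of 4.81 to 1237, and by 44.6 times in replicate 2 with an interval of 7.35 to 1825. On the log2 scale with the added 10, the values were 1.08 and 1.61. *SSA2* and *HSP30* were the 2 members called 2-fold higher in this window, where 19.9% of all genes were called. Both lost the call with no limit on repeated reads, with a pseudocount of 50 and over 150 bp, *SSA2* also with a wider count around each centre and *HSP30* also with 1 read per strand position and on the scale of the genome median. No read spanned 82.7% of these 300 bp in naked DNA, against 28.7% and 24.7% in the replicates. *PAU17*, of the seripauperin family, has its pAS 172 bp away on the other strand.

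Large parts of the bodies of *SSA1* and *SSA2* held no mapped read at all, in chromatin and naked DNA alike. In *SSA1*, 46.7% of the gene body was spanned by no read in naked DNA, 49.2% in replicate 1 and 46.3% in replicate 2, and in *SSA2* it was 48.7%, 50.5% and 42.4%. The medians over all genes were 1.34%, 0.190% and 3.81%. The empty segments had nearly the same borders in each library, and 43.5% of *SSA1* and 42.3% of *SSA2* were empty in all 3 libraries, the longest run of *SSA1* being 329 bp from 661 to 989 bp downstream of the TSS. In each library 8 of the 1971 genes were empty over more than 40% of their bodies. The authors kept only reads that mapped to a single place, and a read from DNA that *SSA1* and *SSA2* share has more than one place. Levels inside these segments are thus unknown, and whether shared sequence makes up the segments was not tested, since no genome sequence of this build was used. Over the base pairs that naked DNA reads did span, *SSA1* had 135 in naked DNA, 191 in replicate 1 and 197 in replicate 2. *SSA2* had 131, 145 and 105 over its own.

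**Figure D3:**
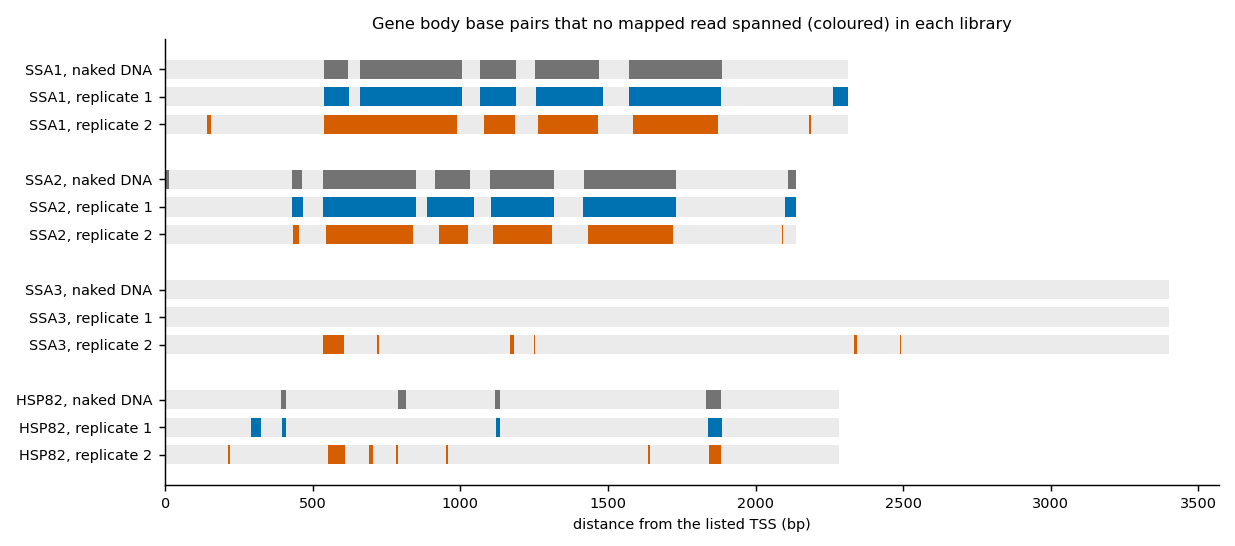
Gene bodies of *SSA1*, *SSA2*, *SSA3* and *HSP82* by distance from the listed TSS in bp (x axis), 1 bar per library, with the base pairs that no mapped read spanned in colour. The empty segments of *SSA1* and *SSA2* recur in all 3 libraries, and *SSA3* has none in naked DNA and replicate 1.

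*SSA3* (YBL075C) encodes an Hsp70 chaperone that is made under stress. It lies on the Crick strand of chromosome II, and its table row gives a TSS at 87829 and a pAS at 84429. The row spans 3400 bp, whereas the coding sequence is 1950 bp long in the reference annotation. The excess of 1450 bp was larger than in 99.03% of 1959 genes, whose median was 205 bp. On the side of the TSS the next gene in that annotation is *AAR2*, an mRNA splicing gene of 1068 coding bp. The excess is longer than *AAR2*, so that the listed promoter of *SSA3* probably lies upstream of *AAR2* and what is called its gene body here probably includes it.

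In the listed promoter *SSA3* had 31.7 in naked DNA, 21.1 in replicate 1 and 33.8 in replicate 2. The replicates lay on either side of naked DNA, and only 0.609% of all genes had a lower promoter in replicate 1. The mean log2 ratio was −0.18, but 0.48 over 500 bp. The gene body had 102 in naked DNA, 123 in replicate 1 and 125 in replicate 2. Both replicates were above naked DNA by more than their spread, at 0.26 ± 0.02 on the log2 scale (SD, n = 2), but with 1 read counted per strand position the value was −0.01. Past the pAS the values were 30.4, 47.3 and 30.3, so that replicate 2 was at the level of naked DNA. The mean log2 ratio of 0.25 turned to −1.20 over the first 150 bp and to −0.43 with repeats reduced to 1 read per strand position. *ILS1*, an isoleucyl-tRNA synthetase gene, starts 128 bp past this pAS.

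The listed body of *SSA3* held a fragment peak of naked DNA that chromatin lacked in part. From 1000 to 1099 bp downstream of the listed TSS the signal was 443 in naked DNA, 275 in replicate 1 and 254 in replicate 2. In the next 100 bp, to 1199, it was 321, 62.4 and 36.6. The chromatin signal there was lower than naked DNA in both replicates, with log2 ratios of −2.19 and −2.83. Unlike *SSA1* and *SSA2*, *SSA3* had reads over its entire body in naked DNA and replicate 1, and 3.15% of it was empty in replicate 2. Of the 17 nucleosomes called between its listed sites in replicate 1, 15 had a partner within 20 bp among the 18 of replicate 2.

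*HSP82* (YPL240C) encodes a stress-induced Hsp90 chaperone and lies on the Crick strand of chromosome XVI, from a TSS at 98677 to a pAS at 96397. Its promoter had 49.6 in naked DNA, 48.4 in replicate 1 and 56.5 in replicate 2, a log2 ratio of 0.07 ± 0.13 (SD, n = 2) that did not differ from 0 beyond the spread. The window average hid a sharp contrast near the TSS. In the last 100 bp upstream of it the signal was 14.8 in naked DNA, 178 in replicate 1 and 256 in replicate 2. A nucleosome was called here in both replicates, at −24 and −34 and with heights of 213 and 292. *HSP82* and *HSP12* were the members with a nucleosome called within 50 bp upstream of the TSS, and in *HSP12* it was called in replicate 1 only.

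Further upstream the order was reversed. From −400 to −301, *HSP82* had 234 in naked DNA, 34.3 in replicate 1 and 48.6 in replicate 2. Chromatin stayed below 50 in both replicates over 241 bp, from −730 to −490. *YAR1*, whose product guards a ribosomal protein before assembly, starts 324 bp upstream, so most of these bases belong to the other gene. With the promoter ended at that TSS, the log2 ratio of *HSP82* was 1.62, and it was then called 2-fold higher.

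In the gene body *HSP82* had 56.9 in naked DNA, 46.1 in replicate 1 and 69.1 in replicate 2. The replicates lay on either side of naked DNA, but both were low among all genes, above only 1.93% and 10.7% of them. The main naked DNA peak did not appear in chromatin. From 180 to 81 bp before the pAS the signal was 570 in naked DNA, 87.0 in replicate 1 and 69.7 in replicate 2. Along the locus the replicates followed each other (r = 0.79 over 339 points) and not naked DNA (r = 0.10 and −0.02). Over all genes the median was 0.65 between replicates, and 0.64 and 0.27 with naked DNA.

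*HSP82* also had an ordered end. Just past the pAS, from 20 to 119 bp, the signal was 26.5 in naked DNA, 3.31 in replicate 1 and 0.499 in replicate 2, and in the following 100 bp it was 17.9, 89.9 and 223. A low stretch was thus followed by a called nucleosome, centred 196 bp past the pAS in both replicates. *CIN2*, a gene of tubulin folding, starts 104 bp past this pAS. The mean over the 300 bp was 37.0, 43.7 and 98.3, at log2 ratios of 0.19 and 1.21. Over the first 150 bp the mean log2 ratio was −1.04, and over the 300 bp it was −0.42 when repeats were reduced to 1 read per strand position.

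*HSP104* (YLL026W) lies on the Watson strand of chromosome XII, from a TSS at 88449 to a pAS at 91433. Its promoter had 185 in naked DNA, 94.3 in replicate 1 and 59.4 in replicate 2. Both replicates were below naked DNA, at log2 ratios of −0.90 and −1.49, the lowest mean of the 7 promoters (−1.20 ± 0.42, SD, n = 2), and replicate 1 missed the call. From −600 to −501, naked DNA had 313 and the replicates 141 and 35.3. Closer to the gene the direction changed. From −250 to −50 the values were 12.6 in naked DNA, 35.9 in replicate 1 and 38.8 in replicate 2, and a nucleosome was called at −218 and −198. In the last 100 bp before the TSS chromatin was again the lower one, with 53.7 in naked DNA, 14.6 in replicate 1 and 34.4 in replicate 2. *ISA1*, which serves iron–sulfur cluster assembly, ends 184 bp upstream, and with the window ended there the log2 ratio was −0.29.

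The gene body of *HSP104* had 82.0 in naked DNA, 89.8 in replicate 1 and 98.9 in replicate 2, close to the middle of all genes in each library. The log2 ratio was 0.18 ± 0.09 (SD, n = 2). Naked DNA had its highest point, 452, at 1088 bp downstream of the TSS and not at the end of the gene, unlike in the other members. Past the pAS the signal was 23.1 in naked DNA, 32.5 in replicate 1 and 128 in replicate 2. The replicates differed 3.79 times from each other in fragment centres (95% counting interval 2.84 to 5.13), and 98.9% of all genes had a lower log2 ratio of replicate 2 to replicate 1. Both had a nucleosome there, centred 188 bp past the pAS in replicate 1 and 198 bp in replicate 2, with heights of 55.1 and 315. Over the first 150 bp the mean log2 ratio was −0.30, against 1.21 over the 300 bp.

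*HSP12* (YFL014W) encodes a small membrane-associated stress protein and is a short gene on the Watson strand of chromosome VI, from a TSS at 107209 to a pAS at 107745. Its promoter and gene body were the ones in which the replicates of a member disagreed most in level, whereas past the pAS *HSP104* had the wider spread. The promoter had 165 in naked DNA, 254 in replicate 1 and 66.8 in replicate 2. Naked DNA lay between the replicates, at log2 ratios of 0.59 and −1.19. In the gene body the signal was 284 in naked DNA, 245 in replicate 1 and 69.7 in replicate 2. Replicate 1 was near naked DNA, while replicate 2 was far below, and only 0.355% of all genes had a lower log2 ratio in replicate 2. Set against each other, replicate 2 had 0.293 times the fragment centres of replicate 1 (95% counting interval 0.25 to 0.341), and only 0.101% of all genes had a lower log2 ratio of replicate 2 to replicate 1.

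Replicate 2 was the lower one over most of the *HSP12* locus. From −250 to −50 the values were 193 in naked DNA, 180 in replicate 1 and 23.3 in replicate 2, and from −600 to −501 they were 402, 863 and 268. In the first 100 bp of the gene body both replicates were above naked DNA (18.1, against 53.0 and 34.9), and around the pAS, from 500 to 599 bp, replicate 2 was the higher one (41.0, against 30.1 in replicate 1). Along the locus the replicates correlated all the same, with r = 0.77 over 164 points. Replicate 1 correlated as closely with naked DNA (r = 0.78), and replicate 2 less so (r = 0.48). Replicate 2 was less like naked DNA in general, with medians over all genes of 0.64 for replicate 1 and 0.27 for replicate 2. No nucleosome called in replicate 1 had a partner within 20 bp in replicate 2. Past the pAS the order was another one, with 18.1 in naked DNA, 58.2 in replicate 1 and 36.4 in replicate 2. Both replicates were above naked DNA, at log2 ratios of 1.28 and 0.72. *IES1*, a subunit gene of the INO80 remodeler, ends 108 bp past this pAS. Replicate and sequencing run cannot be told apart in this difference.

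*HSP30* (YCR021C) encodes a plasma membrane protein that restrains the proton pump under stress, and it lies on the Crick strand of chromosome III from a TSS at 157214 to a pAS at 156030. The promoter had 180 in naked DNA, 114 in replicate 1 and 101 in replicate 2. Both replicates were below naked DNA, at −0.70 ± 0.12 on the log2 scale (SD, n = 2). The difference came from the distal part of the window, and from −500 to −401 the signal was 404 in naked DNA, 172 in replicate 1 and 15.7 in replicate 2. Near the TSS chromatin was the higher one. From −250 to −50 the values were 28.5 in naked DNA, 85.8 in replicate 1 and 95.5 in replicate 2, and nucleosomes were called at −257 and −87 in replicate 1 and at −267 and −77 in replicate 2. *HSP30* thus had no wide gap in front of the TSS. Its longest stretch below 50 in both replicates was 60 bp, and only 1.42% of all genes had a shorter one. That stretch lay far upstream, from −694 to −635. Across the TSS, replicate 1 by itself was below 50 over 126 bp, from −37 to 88.

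The gene body of *HSP30* had 105 in naked DNA, 144 in replicate 1 and 114 in replicate 2. The mean hid that naked DNA and chromatin were placed differently. From 300 to 399 bp downstream of the TSS the signal was 16.4 in naked DNA, 93.1 in replicate 1 and 73.7 in replicate 2. Near the end of the gene, from 1000 to 1099 bp, it was 546, 497 and 56.0, so that replicate 1 kept the naked DNA peak and replicate 2 did not. Past the pAS the values were 9.01, 30.3 and 36.4. Both replicates were above naked DNA, at log2 ratios of 1.08 and 1.29. *HTL1*, a subunit gene of the RSC remodeler, ends 116 bp past this pAS.

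**Figure D4:**
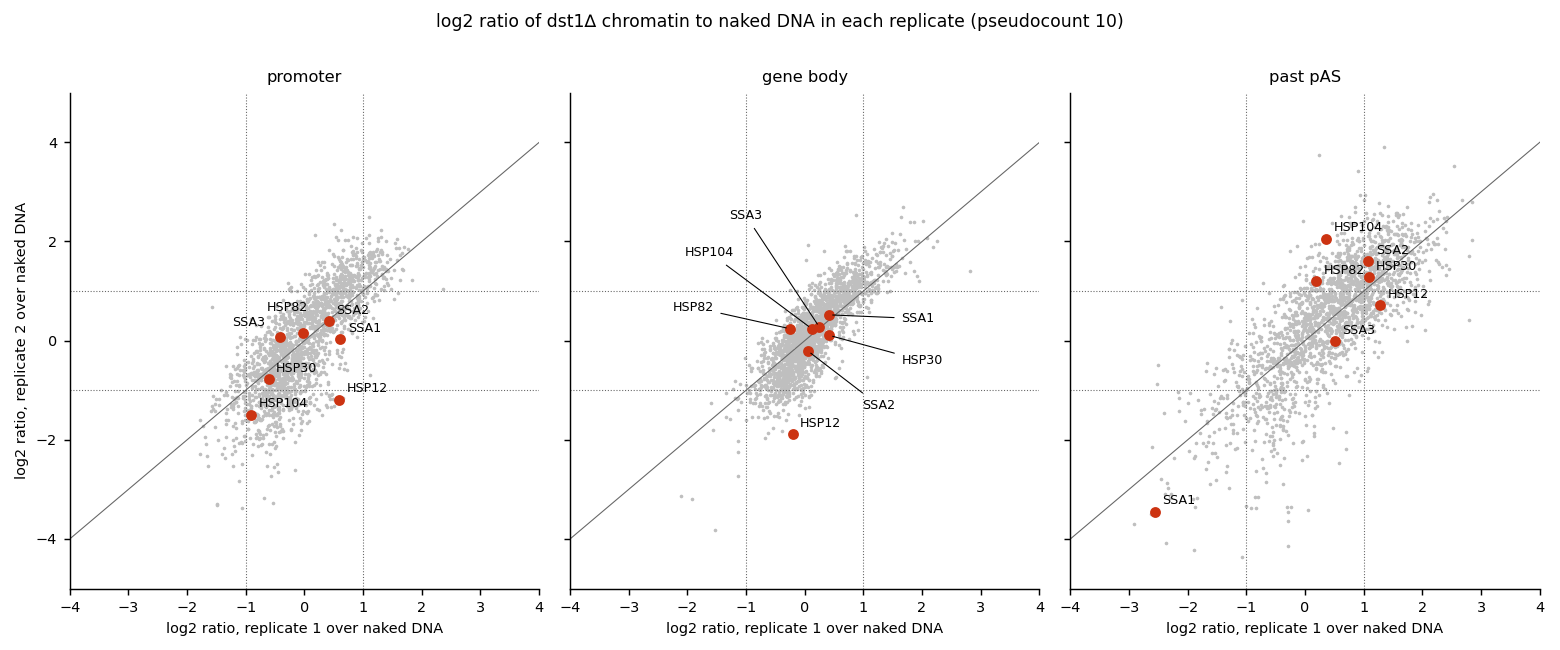
The log2 ratio of *dst1∆* chromatin to naked DNA in replicate 1 (x axis) and replicate 2 (y axis) for 1971 genes (grey) and the 7 heat shock protein genes (red), in each window, with dotted lines at −1 and 1 and a line of equal values. *HSP12* lies far below the line of equal values in the promoter and the gene body, and *SSA1* lies at the lower left past the pAS (−2.56 and −3.45).

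Over the gene bodies no member was called in either direction, against 0.863% of all genes called 2-fold lower and 5.99% called 2-fold higher. In replicate 2 taken alone *HSP12* was past −1, as were 6.09% of all genes. With no limit on repeated reads *SSA1* and *SSA3* were called 2-fold higher, at 1.60 and 1.25. The median log2 ratio of the members was 0.18, and that of all genes was 0.11. Past the pAS the median of the members was 1.00 and that of all genes 0.55. The members' median was 0.50 in replicate 1 and 1.21 in replicate 2, and it turned to −0.30 over the first 150 bp. In this window 1 member was called lower and 2 were called higher as given above. In replicate 1 alone 3 members were past 1, *SSA2*, *HSP30* and *HSP12*, against 26.4% of all genes. In replicate 2 alone 4 were, *SSA2*, *HSP30*, *HSP104* and *HSP82*, against 34.9%. The members, all of them TATA genes, did not share a level. In the gene body the naked DNA signal ran from 56.9 in *HSP82* to 284 in *HSP12*.

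What 6 of the 7 members had in common, and what was seen only after their values were known, was the place of the strongest naked DNA protection. In all members but *HSP104* the highest naked DNA point of the gene body lay in its last 300 bp, as in 20.0% of the 1951 genes of at least 400 bp. Among the 379 TATA genes, 377 were that long and 18.3% had it there. The point was 1027 in *SSA1*, 844 in *SSA2*, 1032 in *SSA3*, 785 in *HSP82*, 784 in *HSP12* and 675 in *HSP30*. The body of *HSP12* is only 536 bp long, so that most of it counts as the end. In *SSA1* and *SSA2* 46.7% and 48.7% of the body held no naked DNA read. This leaves fewer places outside the last 300 bp where their highest point could lie than in most genes. The *SSA* genes are also related in sequence and so are not independent. Chromatin kept a high signal at this place in both replicates of *SSA1* (514 and 412 over the last 300 bp, against 360 in naked DNA) and *SSA3* (422 and 408, against 330). It was lower than naked DNA in both replicates of *HSP82* (74.3 and 110, against 241), *HSP12* (271 and 71.8, against 298) and *HSP30* (255 and 90.8, against 314). In *SSA2* replicate 1 was above naked DNA and replicate 2 below it, as given above.

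Nucleosomes were called on the corrected signal, from which naked DNA had been subtracted, with negative values set to 0. In the 7 gene bodies 56 were called in replicate 1, 64 in replicate 2 and 60 in the pooled replicates. Per kb this was 3.77 and 4.31 in the replicates, against 4.89 and 4.60 over all genes. *SSA1* and *SSA2*, with their empty segments, had 4 and 3 in replicate 1 and 8 and 6 in replicate 2. *HSP104* had 14 in each replicate, *HSP82* had 9 and 12, *HSP30* had 7 and 5, and *HSP12* had 2 and 1. The listed body of *SSA3*, which probably includes *AAR2*, held 17 and 18 in the replicates and 20 in the pooled calls. Of the 56 nucleosomes of replicate 1, 42 had a partner within 20 bp in replicate 2, which is 75.0% of them and 65.6% of the 64. *SSA3* supplied 15 of these 42, so that the members' shares rest in good part on it. Over all genes these shares were 69.3% and 73.6%.

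**Figure D5:**
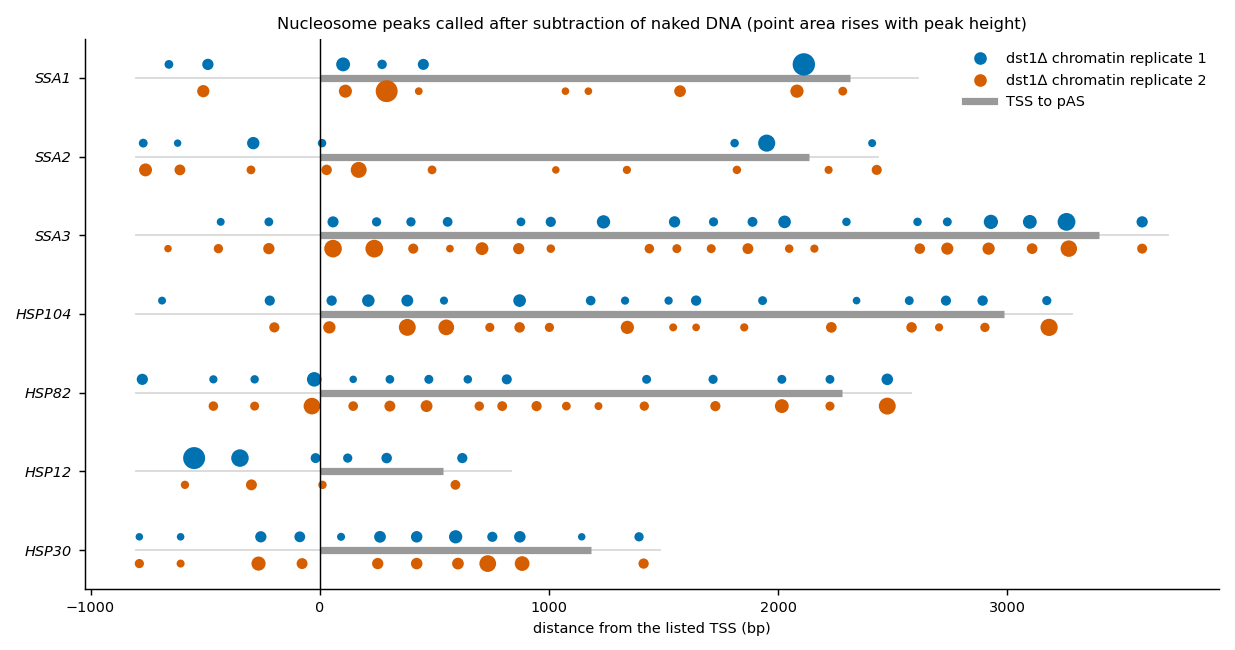
Nucleosomes called after subtraction of naked DNA, by distance from the listed TSS in bp (x axis), with replicate 1 above and replicate 2 below the line of each gene and point area rising with peak height; the thick line is the TSS to the pAS. *HSP82* has a nucleosome at its TSS in both replicates (−24 and −34), and *SSA1* has none between −488 and 102 in replicate 1.

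The position of the first nucleosome downstream of the TSS was close between replicates in *SSA1* (102 and 112 bp), *SSA2* (10 and 30), the listed *SSA3* (58 in both), *HSP104* (52 and 42) and *HSP82* (146 in both). In *HSP30* replicate 1 had a weak one at 93 bp that replicate 2 lacked, and the next was at 263 and 253. In *HSP12* it was at 122 bp in replicate 1 and at 12 in replicate 2. The median distance between neighbouring nucleosomes of the pooled calls was 160 bp in *SSA3*, 180 in *HSP104*, 155 in *HSP30* and 210 in *HSP82*.

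A nucleosome between 180 and 230 bp past the pAS recurred in 4 members, a range noticed after the calls were made. Of all genes 18.1% had one there in both replicates. It was called at 188 bp in both replicates of *SSA3*, at 188 and 198 in *HSP104*, at 196 in both replicates of *HSP82* and at 209 and 229 in *HSP30*. In *SSA3* and *HSP82* it lay past the TSS of the next gene, *ILS1* at 128 bp and *CIN2* at 104 bp. *SSA1* had no called nucleosome in this window in either replicate. Over all genes, nucleosomes past the pAS were called at 4.06 per kb in replicate 1 and 3.87 in replicate 2, and over the members at 2.86 and 3.33.

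The fuzziness score is the SD of position of the corrected signal within 100 bp of a nucleosome's centre. It describes how spread out that signal is and is not a direct measure of spread among cells. It also depends on the correction, on the 81 bp over which centres were summed and on neighbouring peaks within the window. Its mean over the gene body nucleosomes of the members was 32.9 in replicate 1 and 35.6 in replicate 2, or 34.9 in the pooled calls. Over all genes it was 31.4, 31.6 and 31.8. Both replicates of the members were above all genes, but the replicates of the members differed by more than replicate 1 did from all genes. *HSP30* had the highest mean score of the members (45.0 and 40.6), and the nucleosomes of *SSA3* were close to the mean of all genes (30.1 and 32.4).

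Of 57 other chaperone and stress genes listed by their known function, 17 have a row in the part of the table used here. In the promoter 2 of them were called lower and 1 higher, against 4.11% and 5.83% of all genes. In the gene body none was called in either direction, against 0.863% and 5.99%. Past the pAS 1 was called lower and 3 higher (17.6%), against 5.07% and 19.9%. *SSB2*, which encodes an Hsp70 of the ribosome, had the highest promoter ratio, with 11.6 in naked DNA, 36.6 in replicate 1 and 44.1 in replicate 2 (log2 1.11 and 1.32). The lowest was that of *HCH1*, a regulator of Hsp90, with 306 in naked DNA and log2 ratios of −1.01 and −1.60, and *HCH1* also had the lowest gene body ratio. *SSB1* was the second gene called lower. The highest gene body ratios were those of *CCT7*, a subunit of the cytosolic chaperonin, with 54.2 in naked DNA and 80.5 and 116 in the replicates, and of *LHS1*, an Hsp70-related chaperone of the endoplasmic reticulum, with 42.0, 69.7 and 83.5. Both had a mean log2 ratio of 0.73. Past the pAS *MDJ1* was called lower and *CCT2*, *ECM10* and *UBI4* higher. These 4 and *SSB1* are named because of their calls.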

How the data were processed

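Micrococcal nuclease (MNase) fragments were sequenced as single reads. With GEM (version not given in the sources used here) the authors mapped them to sacCer2, at most 3 mismatches being allowed, and retained reads with a single place. Each deposited line gives where a read starts and ends and on which strand. Its display score, set to 1000 by the authors throughout, holds no measurement and stayed out of the work. Repeats were left in, and in naked DNA and replicate 1 identical read sequences are repeated lines of 1 read name.

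Reads per strand position were limited to 11, 9 and 9 (Poisson probability 1e-10), which kept 65.2%, 70.5% and 72.5% of the reads of naked DNA, replicate 1 and replicate 2. Estimated fragment lengths were 145, 139 and 140 bp. A centre lay 73 bp inside each read start. Centres were summed over 81 bp, and the mean over the 16 nuclear chromosomes was set to 100. Ratios are log2 values after adding 10. Peaks of the corrected signal, smoothed with an SD of 20 bp, had a height of at least 20 and lay at least 100 bp apart. Counting intervals are exact (Clopper-Pearson) on fragment centres, at 95%. Values were compared without a p-value, as mean ± SD of the replicates. The steps were tested on simulated data, where nucleosomes on DNA resistant to MNase were lost by the subtraction in part, and because of this outcome recovery was required only of nucleosomes on other DNA.

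The table of TSS and pAS was used in part and names no genome build; its positions were applied to the sacCer2 reads. Symbols, coding lengths and gene order came from the RefSeq table of assembly R64 (1959 of 1971 genes matched), whose coordinates were not used. No sequence is shown. Named genes were the 7 members, genes with a listed site in their promoter or past-pAS windows, and the extremes of the other chaperone and stress genes. The members and lists were chosen with earlier results of these data known. The alternatives were the limit on repeated reads, the centre, the width, the scaling, thinning, each replicate left out, base pairs without naked DNA signal, the pseudocount, the windows, the correction, and peak height and distance. The tools were pandas 2.3.3, numpy 2.4.6, matplotlib 3.10.9 and scipy 1.17.1 in Python 3.11.15.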

Additional observations from a re-analysis of the deposited data

Results flagged for a closer look

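Replicate 2 of *dst1∆* chromatin held 1285 reads on the mitochondrial genome, whereas the naked DNA library and replicate 1 held 0. These reads lie outside the nuclear chromosomes and entered no value. They are noted since they are a signal in data that the comparisons did not use, and what set the libraries apart in this respect was not tested.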

How the results depend on the processing

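No paired analysis was possible because there is 1 naked DNA library and replicate numbers are not shared between groups. Under the alternatives 106 values of the members as a set stayed within the replicate spread or, for counts, within 1.5 times, and 35 did not. Of the log2 ratios of single members 195 stayed within the replicate spread and 64 did not. Leaving out a replicate always keeps such a ratio within that spread. Scaling to a genome median of 100 gave the members medians of −0.95, −0.63 and 0.43, with 2 promoters and 1 gene body called lower, 1 gene called higher past the pAS, and a fuzziness score of 28.5. The promoter median was −0.057 with a wider count around each centre (the length of nucleosomal DNA), 0.023 with no limit on repeated reads, 0.00062 with 500 bp, −0.29 with the window ended at the nearest listed site (1 then called higher), −0.24 and −0.083 with pseudocounts of 1 and 50, and −0.25 without base pairs lacking naked DNA signal. With no limit on repeated reads 2 gene bodies were called higher. The past-pAS median was −0.30 over 150 bp and 0.44 with a pseudocount of 50. The count called higher there was 1 with 1 read per strand position, with the wider count and over 150 bp, and 0 with no limit or a pseudocount of 50. The fuzziness score was 32.3 with 1 read per strand position, 48.1 with the wider count, 40.6 with a weight of 0.5, 46.1 with no correction and 47.6 with the ratio. With each replicate left out in turn, the promoter median ran from −0.029 to 0.036, the past-pAS median from 0.50 to 1.21, fuzziness from 32.9 to 35.6, promoters called lower from 0 to 2, gene bodies called lower from 0 to 1 and genes called higher past the pAS from 3 to 4. The larger counts came without replicate 1. Depth limits the past-pAS values of *SSA2* most, where naked DNA had 1 fragment centre.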
